A study of Mus musculus with 6 samples.

Results

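The 10 endothelial genes described here (Pecam1, Plvap, Kdr, Cdh5, Emcn, Flt1, Tie1, Esam, Egfl7 and Cldn5) were taken by name from an expression table of 44519 rows, and all 10 were found, each in 1 row. They mark the cells that line blood vessels, and they were read in cells sorted as horizontal basal cells, the keratin-positive reserve stem cells of the olfactory epithelium, as a check on admixed vessel cells. GFP-positive cells were sorted from mouse olfactory neuroepithelium and their mRNA was sequenced in bulk, with 1 library per RNA sample. TNF mice, with 3 libraries (replicates 1, 3 and 4), carried Krt17-EGFP, Cyp2g1-rtTA and TRE-TNF and had received doxycycline for 6 weeks, the drug that lets rtTA switch on the tumor necrosis factor (TNF) transgene. Control mice, also with 3 libraries (replicates 1, 2 and 4), carried Krt17-EGFP alone and had no doxycycline. All mice thus carried the reporter used for the sort, and the transgenes and the drug differed together between the groups, so their effects cannot be told apart. Cyp2g1 is a gene of the sustentacular (supporting) cells, so the promoter that drives rtTA belongs to a neighbouring epithelial cell type. The labels state neither ages nor whether animals were pooled, and every p-value here reflects the spread between these RNA samples, which may be technical.

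Vessel endothelium is held together by adherens and tight junctions, grows and survives through receptors for vascular endothelial growth factor (VEGF) and angiopoietin, and exchanges molecules with tissue through pores covered by diaphragms. Under TNF it displays adhesion molecules that capture white blood cells. The olfactory epithelium itself has no vessels, while the lamina propria just below its basal cells is rich in them.

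Values are FPKM, fragments scaled to transcript length and library size, and can therefore be compared between genes. The number of reads is unknown, but low FPKM values fell on steps, and 1 fragment was worth 0.877 to 1.08 times as much in the other libraries as in Control replicate 1. The transgene and the sort were read first. Tnf measured 142, 91.9 and 102 FPKM in TNF replicates 1, 3 and 4, against 7.63, 28.0 and 7.58 FPKM in Control replicates 1, 2 and 4. Trp63, whose protein keeps basal cells in their stem state, was at 79.7 to 117 FPKM in TNF libraries and at 68.6 to 86.1 FPKM in Control libraries. Krt5, a keratin of basal cells, was at 402 to 1011 FPKM in TNF libraries and 151 to 344 FPKM in Control libraries. Cyp2g1 was at 0.221 to 26.5 FPKM in TNF libraries and 246 to 332 FPKM in Control libraries. TNF replicate 1 and Control replicate 4 stood apart from the other libraries of their groups in several marker lists. Counts of genes called are therefore also given without TNF replicate 1, on which the endothelial values turn, and those of the 10 genes with both left out. In bulk samples, fewer cells of a type and less RNA per cell cannot be told apart.

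The endothelial genes were split within the TNF group, with 1 TNF library far below the Control libraries and the other two above them. Summed over the 10 genes, the level was 4.32, 208 and 293 FPKM in TNF replicates 1, 3 and 4, against 71.8, 66.4 and 122 FPKM in Control replicates 1, 2 and 4. TNF replicate 1 thus held 4.98% of the Control mean, while TNF replicates 3 and 4 held 2.39 and 3.38 times that mean. Without Plvap, the highest, and Egfl7, whose row is merged with other genes, the sums were 1.75, 83.3 and 126 FPKM in the TNF libraries, against 27.9, 25.8 and 31.4 FPKM in the Control libraries. Of the 10 genes, 10 were below all Control libraries in TNF replicate 1, and 9 were above all Control libraries in TNF replicates 3 and 4, with Cldn5 the exception. Among the 9 genes that passed a filter of at least 1 FPKM in at least 3 libraries, 8 showed both, a pattern found in 3.37% of the 15037 rows that passed. Taken singly, a TNF replicate 1 value below all controls was found in 47.3% of those rows, and TNF replicates 3 and 4 above all controls in 25.0%. Each library was then scaled to the median of the horizontal basal cell list, with factors of 1.85, 1.56 and 1.48 in TNF replicates 1, 3 and 4. In Control replicates 1, 2 and 4 the factors were 0.791, 0.868 and 0.351. Of the 11 rows of that list 5 were themselves higher and 0 lower in TNF libraries (limma, beside 10.9% and 27.2% of all rows). The scaling may thus also remove a rise of those genes. TNF replicate 1 was already lowest and had the largest factor, so its low level was bound to hold. The high level in TNF replicates 3 and 4 did not hold against every control. The scaled sums were 2.34, 133 and 198 in TNF replicates 1, 3 and 4, against 90.8, 76.5 and 348 in Control replicates 1, 2 and 4, so that TNF replicates 3 and 4 were at 0.775 and 1.15 times the Control mean and below Control replicate 4. Against the mean of Control replicates 1 and 2 alone they were at 1.59 and 2.37 times. After this scaling 10 of the 10 genes were below all controls in TNF replicate 1 (87.7% of rows), a count that the factors fixed in advance. In TNF replicates 3 and 4, 2 genes, Pecam1 and Emcn, were above all controls (5.51% of rows).

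**Figure D1:**
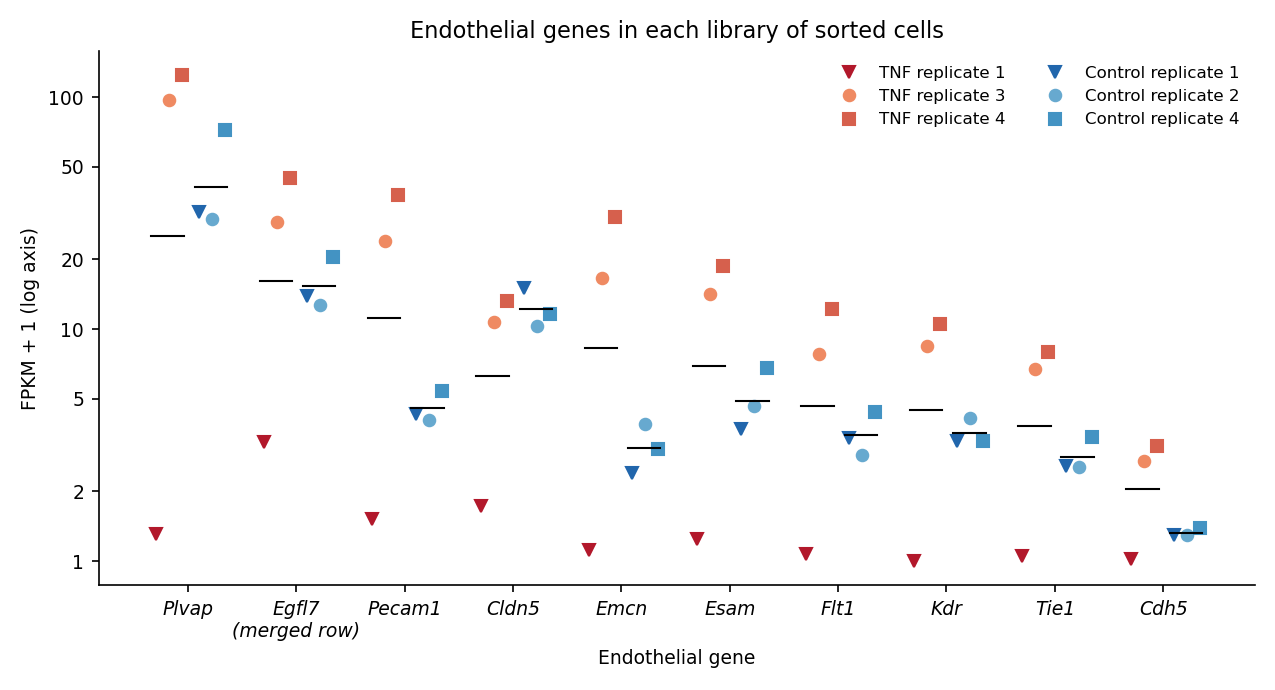
Each point is the FPKM + 1 of an endothelial gene (log vertical axis) in 1 library, with the TNF libraries left of the Control libraries and a black line at the group mean on the log scale (n = 3 each). TNF replicate 1 is the lowest library for every gene, and TNF replicates 3 and 4 are the 2 highest for every gene other than Cldn5, for which Control replicate 1 is highest at 14.0 FPKM.

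Of the junction and adhesion genes, Pecam1 (CD31, an adhesion molecule between endothelial cells, also found on platelets and white blood cells) measured 0.512, 23.0 and 36.8 FPKM in TNF replicates 1, 3 and 4, against 3.31, 3.05 and 4.39 FPKM in Control replicates 1, 2 and 4. TNF replicates 3 and 4 were 6.41 and 10.3 times the Control mean. The Control libraries lay closely together, with TNF libraries on either side of them. Esam, an adhesion molecule of endothelial tight junctions and platelets, was at 0.244, 13.2 and 17.8 FPKM in the TNF libraries, against 2.71, 3.68 and 5.81 FPKM in the Control libraries. Cdh5 (VE-cadherin, the adherens junction cadherin of endothelium) had the lowest mean of the 10 genes, at 0.0203, 1.69 and 2.13 FPKM in the TNF libraries and 0.299, 0.292 and 0.389 FPKM in the Control libraries. It reached 1 FPKM in TNF replicates 3 and 4 alone and so did not pass the filter, and in a fit of all rows above 0 its log2 change was 0.63 ± 0.43 (SE, n = 3 per group, limma adjusted p = 0.356). Cldn5, the main claudin of endothelial tight junctions, stood at 0.732, 9.78 and 12.2 FPKM in the TNF libraries, against 14.0, 9.34 and 10.7 FPKM in the Control libraries. In TNF replicates 3 and 4 it thus lay within the Control range, at 0.864 and 1.08 times the Control mean.

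Of the surface glycoproteins, Plvap, which forms the diaphragms of endothelial pores and caveolae, had the highest mean of the 10 genes. Its level was 0.310, 96.4 and 123 FPKM in TNF replicates 1, 3 and 4, against 31.1, 28.9 and 71.4 FPKM in Control replicates 1, 2 and 4. In TNF replicate 1 it was at 0.707% of the Control mean, the lowest share among the 9 genes not listed at 0 there, and the Control libraries themselves were spread by Control replicate 4. The table gives Plvap the same bounds as the neighbouring Gtpbp3, although the exons of the genes do not overlap, and Gtpbp3 was at 6.17, 6.27 and 7.03 FPKM in the TNF libraries and 3.97, 3.85 and 5.92 FPKM in the Control libraries. Emcn (endomucin, a sialomucin of veins and capillaries) was at 0.112, 15.6 and 29.5 FPKM in the TNF libraries, against 1.40, 2.90 and 2.05 FPKM in the Control libraries. Its values in TNF replicates 3 and 4, at 7.37 and 13.9 times the Control mean, were the furthest above it of the 10 genes.

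The receptor genes were low throughout. Kdr (VEGFR2, the main signalling receptor for VEGF-A) was listed at 0 in TNF replicate 1 and measured 7.45 and 9.53 FPKM in TNF replicates 3 and 4, against 2.29, 3.14 and 2.28 FPKM in Control replicates 1, 2 and 4. Flt1 (VEGFR1, which binds the same ligand and acts largely as a decoy) was at 0.0725, 6.82 and 11.2 FPKM in the TNF libraries, against 2.38, 1.86 and 3.39 FPKM in the Control libraries. Tie1, a partner of the angiopoietin receptor Tek, was at 0.0522, 5.73 and 6.97 FPKM in the TNF libraries, against 1.57, 1.54 and 2.42 FPKM in the Control libraries. All 3 receptors thus had the same arrangement of libraries, with TNF replicates 3 and 4 at 2.68 to 4.401 times the Control mean. Egfl7, which encodes a secreted angiogenic factor, was at 2.27, 27.9 and 43.8 FPKM in the TNF libraries, against 12.8, 11.7 and 19.4 FPKM in the Control libraries. Its row is merged with Fam69b and Gm20532, and its exons overlap those of Gm20532 and, on the opposite strand, Agpat2, so its level is uncertain. It was the only one of the 10 genes to reach 1 FPKM in TNF replicate 1, where Agpat2 was at 28.5 FPKM, against 19.9 and 20.9 FPKM in the other TNF libraries and 8.20 to 12.8 FPKM in Control libraries.

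In the order of levels, Plvap led in TNF replicates 3 and 4 and in the 3 Control libraries, and Cdh5 was last in the same 5 libraries. Egfl7 came after Plvap in TNF replicates 3 and 4, at 13.4% and 14.9% of the summed level of the 10 genes, followed by Pecam1 at 11.1% and 12.5%. In Control replicates 1, 2 and 4 Egfl7 held 17.9%, 17.7% and 15.9% and Pecam1 4.61%, 4.597% and 3.59%. Cldn5 held 4.71% and 4.17% in TNF replicates 3 and 4, against 19.5%, 14.1% and 8.73% in Control replicates 1, 2 and 4. Cldn5 thus ranked 6 of 10 in both of these TNF libraries and 2, 3 and 3 in the Control libraries, and Emcn ranked 4 in both and 9, 7 and 9 in the Control libraries. Plvap held 46.4% and 42.1% in TNF replicates 3 and 4 and 43.2% to 58.4% in the Control libraries. By the mean over all 6 libraries the order was Plvap (58.6 FPKM), Egfl7 (19.6), Pecam1 (11.8), Cldn5 (9.45), Emcn (8.60), Esam (7.24), Flt1 (4.28), Kdr (4.12), Tie1 (3.05) and Cdh5 (0.804). Each gap between neighbours was smaller than the SD of the higher gene over the libraries. The genes were read in the same libraries, so this SD does not measure the spread of a gap. In TNF replicate 1, where the sum was 4.32 FPKM, the merged Egfl7 row made up 52.5%.

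**Figure D2:**
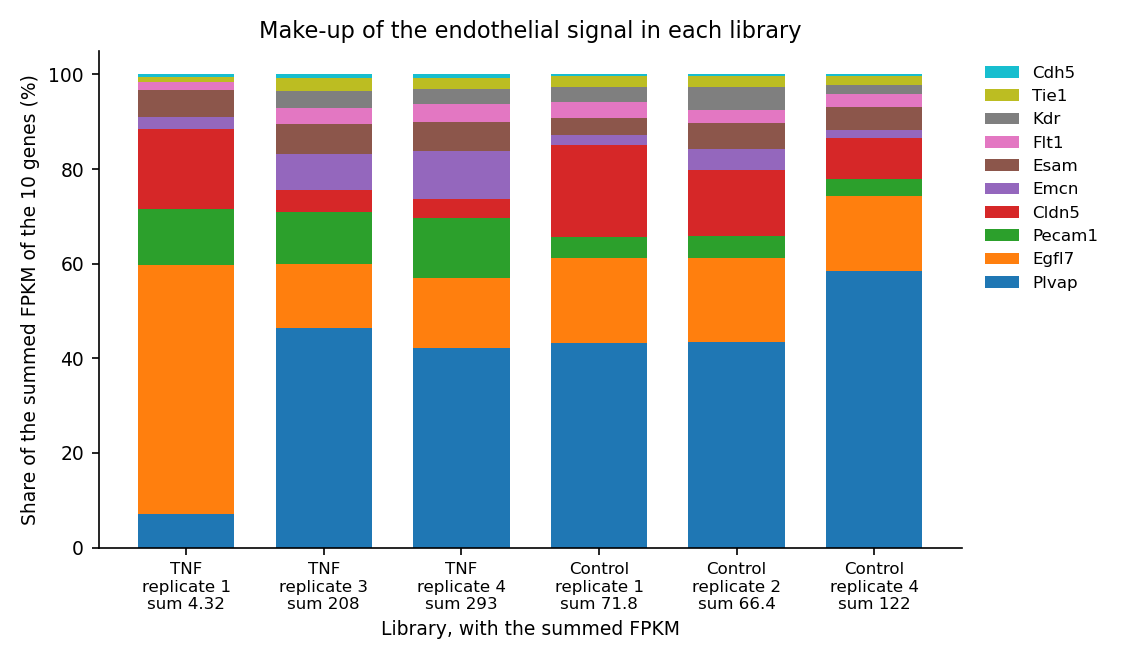
Stacked bars give each gene's share, in percent, of the summed FPKM of the 10 endothelial genes in each library, with the sum in FPKM under each bar. Cldn5 takes 4.17% to 4.71% in TNF replicates 3 and 4 and 8.73% to 19.5% in the Control libraries, and TNF replicate 1 differs in make-up at a sum of 4.32 FPKM.

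The comparison of the groups was made with limma on log2(FPKM + 1) for all rows that passed the filter, with Benjamini-Hochberg adjustment and a threshold of 0.05. Of the 9 endothelial genes tested, 0 were higher and 0 lower in TNF libraries, where 38.0% of all rows were called, 10.9% higher and 27.2% lower. At an unadjusted p below 0.05 the count was also 0. The median log2 change of the 9 genes was 0.42, beside −0.22 for all rows, and the pseudocount of 1 makes the changes of low genes look smaller. Emcn had a log2 change of 1.43 ± 1.16 (SE, n = 3 per group, limma adjusted p = 0.369) and Pecam1 one of 1.29 ± 1.14 (adjusted p = 0.412). Cldn5 was at −0.96 ± 0.75 (adjusted p = 0.355) and Plvap at −0.71 ± 1.68 (adjusted p = 0.771), and the other 5 genes lay between 0.08 and 0.50. These errors, of up to 1.68 log2 units, are too wide for the test to show that the groups are alike.

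Without TNF replicate 1, limma placed 8 of the 9 genes higher and 0 lower in TNF libraries, where 47.6% of all rows were called, 14.7% higher and 32.9% lower. The genes then changed by 1.23 ± 0.29 (Egfl7) to 2.88 ± 0.35 (Emcn) on the log2 scale (SE, adjusted p = 0.0178 and 0.00208), with a median of 1.42 over the 9 genes. Pecam1 rose by 2.73 ± 0.27 (adjusted p = 0.00119), Esam by 1.74 ± 0.32 (adjusted p = 0.00731), Flt1 by 1.49 ± 0.30, Plvap by 1.42 ± 0.41 (adjusted p = 0.0334), Kdr by 1.41 ± 0.23 and Tie1 by 1.38 ± 0.23. Cldn5 was at −0.03 ± 0.23 (adjusted p = 0.930). With Control replicate 4 left out as well, 8 were again higher and 0 lower, where 58.6% of all rows were called, 18.9% higher and 39.7% lower. That TNF replicate 1 has low vessel markers was known when this omission was chosen, so the 8 calls describe TNF replicates 3 and 4 and not the TNF group. The other single omissions gave 0 calls in either direction. With all 6 libraries and scaling to the horizontal basal cell list, 0 of the 9 genes were higher and 1 was lower, Cldn5 (log2 change −2.07, limma adjusted p = 0.0221), where 1.77% of all rows were higher and 64.4% lower. With that scaling and without TNF replicate 1 the count of higher genes was 1, Emcn (1.80, adjusted p = 0.0340), and that of lower genes 0, where 2.21% and 45.0% of all rows were called, and Pecam1 was at 1.57 (adjusted p = 0.0602). With Control replicate 4 left out too, 7 were higher and Cldn5 was lower, where 7.59% and 73.1% of all rows were called. The 8 calls thus depend on the scaling, and the scaled count on Control replicate 4.

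**Figure D3:**
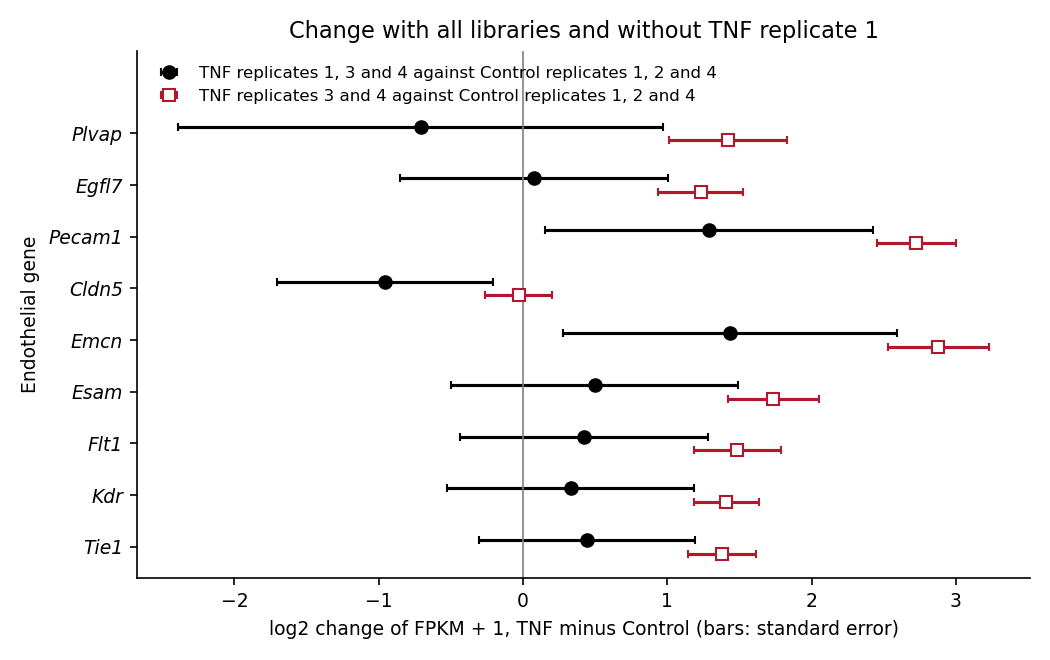
Log2 change of FPKM + 1, TNF minus Control, for the 9 endothelial genes tested, with all 6 libraries (filled circles) and without TNF replicate 1 (open squares); bars are standard errors from limma. Errors run from 0.75 to 1.68 with all libraries and from 0.23 to 0.41 without TNF replicate 1, where Cldn5 is the gene near 0.

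Promoters of Emcn and Tie1, which shared the arrangement of libraries, and of Cldn5, which did not share it in TNF replicates 3 and 4, are shown. Endothelial genes are commonly bound by transcription factors of the ETS family, which recognise the core GGAA. Windows of 300 bases, 250 before and 50 after the start, came from RefSeq (GRCm38.p6) for 6 of the 10 genes, and those of Pecam1, Plvap, Cdh5 and Esam were not analysed here. The core was searched for on both strands as GGAA or TTCC, and 96% of 32851 windows of all genes held at least 1, with a median of 3. Emcn (chr3:137340828-137341127, plus strand) held 6, a count reached by 15.7% of windows. Tie1 (chr4:118489800-118490099, minus strand) held 9, a count reached by 1.59% of windows. Kdr and Flt1 held 5 and 4, and the 3 Egfl7 windows 5, 4 and 1. Cldn5 (chr16:18776597-18776896, plus strand) held 0. No other motif is reported, and the choice of motif was made with the levels known. Emcn and Tie1 held the most matches of the 6 genes, while Kdr, Flt1 and Egfl7 shared the arrangement with fewer. No link between count and arrangement is drawn. A match is no evidence of binding, and the lack of one says only that these letters are not in this window. In the sequences, written 5′ to 3′ on the strand of the gene, capitals mark GGAA or TTCC.
Emcn: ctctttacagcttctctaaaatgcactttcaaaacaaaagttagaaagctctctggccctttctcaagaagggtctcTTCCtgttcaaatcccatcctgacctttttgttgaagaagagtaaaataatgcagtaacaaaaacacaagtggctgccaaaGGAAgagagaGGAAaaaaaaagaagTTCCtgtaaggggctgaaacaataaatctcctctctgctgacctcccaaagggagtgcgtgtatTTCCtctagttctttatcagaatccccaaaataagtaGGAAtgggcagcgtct
Tie1: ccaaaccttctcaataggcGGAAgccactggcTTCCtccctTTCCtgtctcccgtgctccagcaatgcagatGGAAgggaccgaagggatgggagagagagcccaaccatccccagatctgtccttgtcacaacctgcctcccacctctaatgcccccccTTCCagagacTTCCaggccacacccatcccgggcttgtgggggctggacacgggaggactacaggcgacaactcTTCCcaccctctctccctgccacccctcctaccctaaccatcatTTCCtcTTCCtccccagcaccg
Cldn5: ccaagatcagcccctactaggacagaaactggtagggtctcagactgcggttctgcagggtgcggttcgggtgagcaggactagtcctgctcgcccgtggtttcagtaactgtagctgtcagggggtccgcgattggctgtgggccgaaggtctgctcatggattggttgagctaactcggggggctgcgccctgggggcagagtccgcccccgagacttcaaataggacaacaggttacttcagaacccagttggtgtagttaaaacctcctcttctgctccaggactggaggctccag

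Most other pan-endothelial genes had the same arrangement of libraries. Of 34 listed genes 18 passed the filter, of which 2 rose and 0 fell (limma, where 10.9% and 27.2% of all rows did), and 14 rose and 0 fell without TNF replicate 1 (14.7% and 32.9% of all rows). With basal cell scaling and without TNF replicate 1, 2 rose and 0 fell, where 2.21% and 45.0% of all rows did. Their median log2 change was 0.71, and 1.45 without TNF replicate 1, beside −0.22 and −0.25 for all rows. TNF replicate 1 lay below and TNF replicates 3 and 4 above all controls for 24 of the 34, beside 757 of all 44519 rows. Of those rows 17077 were 0 in every library and could not show it. Among the 18 that passed the filter the count was 12, beside 3.37% of rows that passed. Cd34, a sialomucin of capillaries and blood stem cells, measured 0.438, 28.9 and 43.0 FPKM in TNF replicates 1, 3 and 4, against 0.709, 1.13 and 2.17 FPKM in Control replicates 1, 2 and 4 (adjusted p = 0.165). Tmem100 was at 3.62, 30.7 and 38.8 FPKM in the TNF libraries, against 6.98, 3.91 and 6.89 FPKM in the Control libraries (adjusted p = 0.210). Both genes thus overlapped between the groups.

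The 2 pan-endothelial genes that rose were high in TNF replicate 1 too. Ecscr, whose row is merged with Dnajc18, measured 39.1, 54.2 and 74.1 FPKM in TNF replicates 1, 3 and 4, against 9.76, 12.5 and 12.8 FPKM in Control replicates 1, 2 and 4, a log2 change of 2.12 ± 0.26 (SE, limma adjusted p = 0.00143). Sox18, a transcription factor of vessel and lymphatic development, was at 7.24, 6.20 and 5.04 FPKM in the TNF libraries, against 2.28, 2.14 and 1.69 FPKM in the Control libraries, a log2 change of 1.23 ± 0.21 (adjusted p = 0.00487). For both, the groups did not overlap, as at 53.0% of rows that passed the filter. After the same scaling, Ecscr was at 0.80 and Sox18 at 0.15, and both calls ended. Ramp2, in a row merged with Vps25, had the highest mean of the list and was at 104 ± 1.75 FPKM in TNF and 127 ± 13.6 FPKM in Control libraries (SD, n = 3 each, adjusted p = 0.172).

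Genes of activated and venous endothelium, which capture leukocytes under TNF, were read next. Of 11 genes 10 passed the filter, and 1 rose and 0 fell (10.9% and 27.2% of all rows). Without TNF replicate 1 the counts were 6 and 0 (14.7% and 32.9%), and with basal cell scaling as well 3 and 0 (2.21% and 45.0%). Sele (E-selectin) measured 0.0603, 11.9 and 16.6 FPKM in TNF replicates 1, 3 and 4, against 0.953, 1.22 and 1.008 FPKM in Control replicates 1, 2 and 4, with an adjusted p of 0.256 by limma and of 0.000622 without TNF replicate 1. Madcam1, the mucosal vessel ligand for lymphocytes, was at 0.569, 32.3 and 40.6 FPKM in the TNF libraries, against 0.372, 1.75 and 0.557 FPKM in the Control libraries. Both were thus high in TNF replicates 3 and 4 and within or below the Control range in TNF replicate 1. Sele and Madcam1 were picked after their values were seen, and TNF replicate 1 was left out with its low vessel markers known. The adjusted p of 0.000622 for Sele is therefore no test of the TNF group. Icam1 and Vcam1, which epithelial cells also express, had another arrangement. Vcam1 was at 320, 398 and 366 FPKM in the TNF libraries, against 65.3, 205 and 8.53 FPKM in the Control libraries (adjusted p = 0.0672). Icam1 was at 311 to 401 FPKM in TNF libraries and at 22.4 to 351 FPKM in Control libraries (adjusted p = 0.163). Ephb4, a venous ephrin receptor, was the gene that rose, at 29.3, 25.9 and 27.8 FPKM in the TNF libraries, against 7.85, 18.1 and 5.43 FPKM in the Control libraries (log2 change 1.48 ± 0.39, adjusted p = 0.0245). Leaving out Control replicate 1 or 4, or TNF replicate 3 or 4, ended this call (adjusted p = 0.0838, 0.0554, 0.0663 and 0.0693), as did scaling to the horizontal basal cell list.

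Of the VEGF and angiopoietin pathway, 8 of 12 genes passed the filter, and 1 rose and 2 fell, near the 10.9% and 27.2% of all rows. Vegfa, the ligand of Kdr and Flt1, measured 73.5, 102 and 99.1 FPKM in TNF replicates 1, 3 and 4, against 35.4, 36.0 and 10.8 FPKM in Control replicates 1, 2 and 4, a log2 change of 1.87 ± 0.46 (SE, limma adjusted p = 0.0184). It was high in TNF replicate 1, where both receptors were at or near 0, and leaving out TNF replicate 3 or 4 (adjusted p = 0.0625 and 0.0579) or scaling to the horizontal basal cell list (0.53, adjusted p = 0.282) ended its call. Nrp2, a coreceptor of lymphatic VEGF signalling that neurons also use, was at 1.48, 4.55 and 5.27 FPKM in the TNF libraries, against 29.7, 21.5 and 23.4 FPKM in the Control libraries (log2 change −2.54 ± 0.38, adjusted p = 0.00279). Olfactory neuron genes summed to 672, 40.4 and 33.0 FPKM in TNF replicates 1, 3 and 4, against 2886, 2477 and 5141 FPKM in Control replicates 1, 2 and 4, and their part in the Nrp2 value was not tested. Flt4 (VEGFR3, the lymphatic VEGF receptor) was at 0.210, 0.907 and 0.829 FPKM in the TNF libraries, against 1.997, 2.09 and 2.38 FPKM in the Control libraries (log2 change −0.96 ± 0.22, adjusted p = 0.0154), and its call ended under quantile normalization. Without TNF replicate 1 the counts were 3 and 2 (14.7% and 32.9% of all rows). They were 0 and 2 with basal cell scaling as well (2.21% and 45.0%). In the unscaled fit Pgf and Angpt2, a VEGF-family ligand and a Tek ligand, were added among the higher (limma adjusted p = 0.0255 and 0.0317). These genes and the omission were chosen with the values known, so the p-values are no test of the TNF group. Vegfc, a lymphatic growth factor, did not pass the filter, at 0.337, 8.33 and 8.36 FPKM in the TNF libraries and 0.159 to 0.213 FPKM in the Control libraries. Tek was at 0.00936, 1.54 and 2.83 FPKM in the TNF libraries and 0.561 to 0.872 FPKM in the Control libraries.

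Of 12 arterial and tip cell genes 7 passed the filter, and 1 rose and 1 fell, beside 10.9% and 27.2% of all rows. Apln (apelin, a peptide of sprouting vessels) measured 28.8, 27.6 and 22.7 FPKM in TNF replicates 1, 3 and 4, against 1.11, 2.35 and 0.701 FPKM in Control replicates 1, 2 and 4, a log2 change of 3.57 ± 0.29 (SE, limma adjusted p = 0.000476). Its groups did not overlap, as at 53.0% of rows that passed the filter, and TNF replicate 1 was its highest library. Unc5b, a netrin receptor, fell to 0.605 ± 0.105 FPKM in TNF libraries, against 1.79 ± 0.336 FPKM in Control libraries (adjusted p = 0.0113), a call that ended without TNF replicate 4 (adjusted p = 0.0539) and under quantile normalization. Dll4, a Notch ligand of arterial and tip cells, was below the filter, at 0.0747, 9.05 and 9.60 FPKM in the TNF libraries and 0.318 to 0.546 FPKM in the Control libraries. Of 7 lymphatic genes 5 passed, and 0 rose and 3 fell, beside 10.9% and 27.2% of all rows. With replicate number as a block 1 was higher and 1 lower. The lymphatic and platelet gene Mmrn1 was at 0.0110, 0.220 and 0.731 FPKM in the TNF libraries, against 21.3, 19.7 and 31.6 FPKM in the Control libraries (log2 change −4.26 ± 0.30, adjusted p = 0.000397). The lymphatic chemokine Ccl21a fell to 23.5 ± 7.32 FPKM in TNF libraries, against 52.8 ± 6.60 FPKM in Control libraries (adjusted p = 0.0113). Prox1 and Lyve1, the defining lymphatic genes, were at or below 1.25 and 0.293 FPKM in TNF libraries and at or below 2.43 and 0.0852 FPKM in Control libraries.

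Most markers of fibroblasts and of the cells that wrap vessels had the same arrangement as the endothelial genes. Fibroblast genes had summed levels of 73.9, 1197 and 1742 FPKM in TNF replicates 1, 3 and 4, against 559, 478 and 163 FPKM in Control replicates 1, 2 and 4, and 9 of 12 had TNF replicate 1 below and TNF replicates 3 and 4 above all controls. Over all 44519 rows 757 had this arrangement, and among rows that passed the filter 3.37% did, with 6 of the 9 tested fibroblast genes. Of 9 fibroblast genes tested 1 rose and 1 fell (10.9% and 27.2% of all rows), and 6 rose and 1 fell without TNF replicate 1 (14.7% and 32.9%), or 1 and 1 with basal cell scaling as well. For pericytes and smooth muscle 7 of 12 genes, and 5 of the 9 tested, had the same arrangement. By limma 1 of 9 tested was higher and 1 lower (10.9% and 27.2% of all rows). Counts were 5 and 1 without TNF replicate 1 (14.7% and 32.9%), and 0 and 1 with basal cell scaling too (2.21% and 45.0%). Pdgfrb, the pericyte receptor, was at 0.185, 28.7 and 35.1 FPKM in the TNF libraries, against 2.88, 4.52 and 6.24 FPKM in the Control libraries. Rgs5, also used as a pericyte marker, did not follow it, at 1395, 1338 and 1276 FPKM in the TNF libraries, against 350, 332 and 226 FPKM in the Control libraries (log2 change 2.16 ± 0.24, adjusted p = 0.00112), a call that ended after scaling to the horizontal basal cell list. Vtn was the gene of this list that fell, at 0.176, 1.25 and 1.85 FPKM in the TNF libraries, against 43.2, 14.2 and 11.2 FPKM in the Control libraries (limma adjusted p = 0.00424). Notch3, Cspg4 and Higd1b did not share the arrangement either. The part of these cells in the endothelial values was not tested.

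Markers of blood and of the sorted cell had other arrangements. Red cell genes summed to 1.79 to 3.26 FPKM in TNF libraries and 6.71 to 34.7 FPKM in Control libraries. Platelet genes, of interest since platelets also make Pecam1 and Esam, summed to 9.67 to 14.3 FPKM in TNF libraries and 36.6 to 62.6 FPKM in Control libraries, with 3, 2 and 3 of 8 at 0 in TNF replicates 1, 3 and 4, against 3, 1 and 4 in Control replicates 1, 2 and 4. Most of the Control sum was the Gp1bb row, merged with Sept5, at 27.6, 30.8 and 50.8 FPKM, so platelet content is uncertain. Pf4 was at 0.700 to 1.32 FPKM in TNF libraries and 3.31 to 7.92 FPKM in Control libraries. Ppbp was highest in TNF replicate 4, at 4.42 FPKM, and Gp9, Gp1ba, Gp6 and Treml1 were near 0 in every library. Macrophage genes summed to 42.3 to 93.6 FPKM in TNF libraries and 162 to 1163 FPKM in Control libraries, and T and NK cell genes to 7.45 to 10.4 FPKM and 22.0 to 99.96 FPKM. None of these 4 blood lists had a gene with TNF replicate 1 below and TNF replicates 3 and 4 above all controls. Only 757 of all 44519 rows, and 3.37% of those that passed the filter, had this arrangement, so lists this short could lack it at either share. Horizontal basal cell genes summed to 8041, 5417 and 5185 FPKM in TNF replicates 1, 3 and 4, against 2748, 3359 and 870 FPKM in Control replicates 1, 2 and 4, so TNF replicate 1 was highest and Control replicate 4 lowest. The endothelial sum was below that of the basal cell genes in every library.

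**Figure D4:**
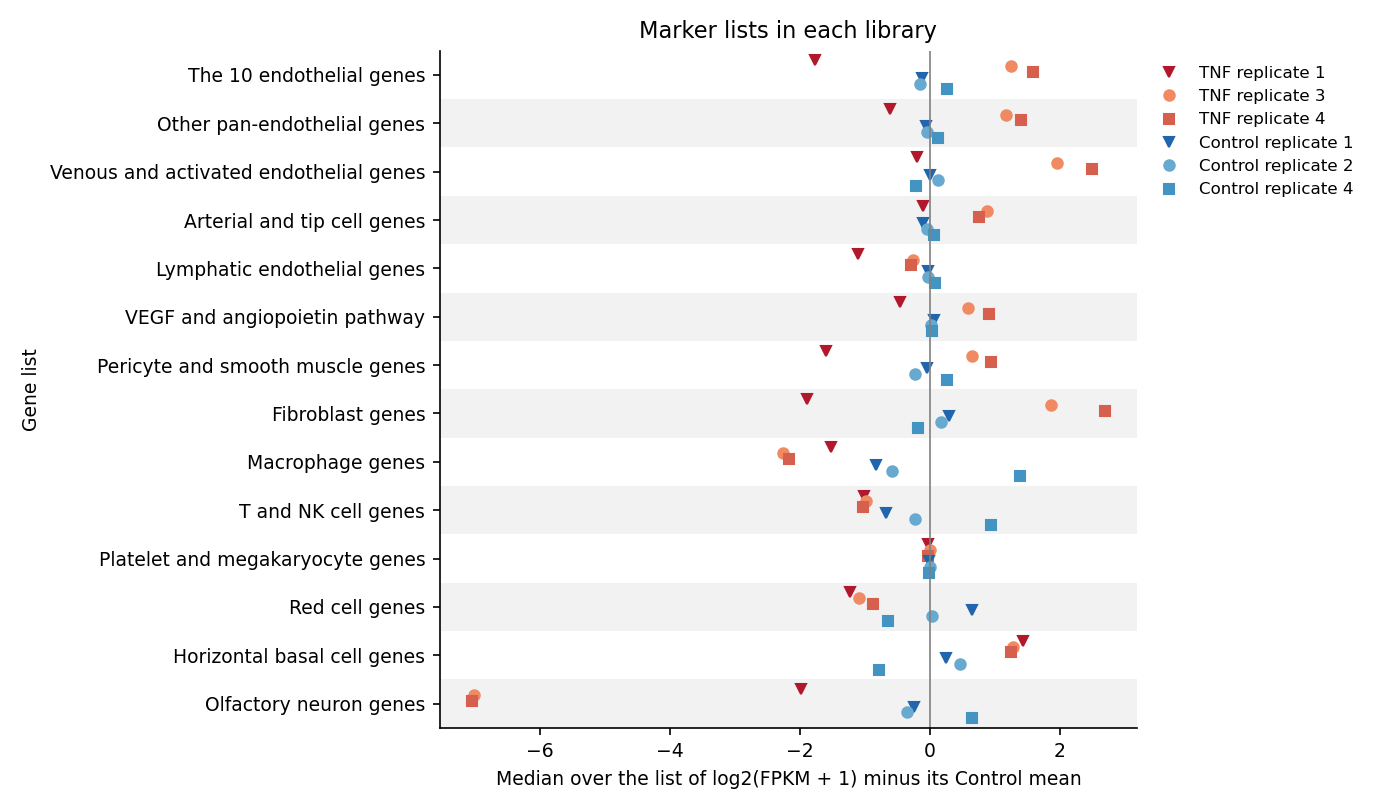
For each gene list (rows) and library (points), the median over the list of log2(FPKM + 1) minus the Control mean, with TNF libraries in reds drawn above Control libraries in blues. TNF replicate 1 is at −1.76 and TNF replicates 3 and 4 are at 1.25 and 1.58 for the 10 endothelial genes, and at −1.90, 1.86 and 2.70 for fibroblast genes, whereas for horizontal basal cell genes the 3 TNF libraries are at 1.42, 1.27 and 1.25.

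The genes whose pattern over the 6 libraries was nearest to the mean pattern of the 9 tested endothelial genes were sought among 10061 other rows with 1 gene symbol and a mean of at least 5 FPKM. Nearness was the root mean square difference of log2(FPKM + 1) values, each centred on its own mean. The 10 nearest were Tagln, Tmem204, Thbd, Aspn, Tfpi, Dusp5, Mmp2, Tspan18, S1pr1 and Srgn, at 0.22 to 0.29 log2 units, while the 9 endothelial genes were themselves at 0.17 (Esam) to 1.04 (Plvap). Tagln, an actin-binding protein of smooth muscle, measured 1.53, 34.4 and 51.3 FPKM in TNF replicates 1, 3 and 4, against 9.995, 7.58 and 14.9 FPKM in Control replicates 1, 2 and 4. Thbd (thrombomodulin, an anticoagulant receptor of endothelium) was at 0.485, 14.7 and 15.2 FPKM in the TNF libraries, against 4.47, 3.65 and 4.30 FPKM in the Control libraries. Tfpi, the tissue factor pathway inhibitor, was at 0.249, 8.59 and 16.5 FPKM in the TNF libraries, against 2.39, 2.61 and 3.30 FPKM in the Control libraries. Mmp2, a gelatinase made largely by fibroblasts, was at 1.69, 43.9 and 59.4 FPKM in the TNF libraries, against 9.36, 12.7 and 11.95 FPKM in the Control libraries. These genes were picked for their pattern, so that its likeness to that of the endothelial genes is no finding.

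In the deposited table (mm10), the rows of Pecam1 (chromosome 11, 106654217 to 106750628, minus strand), Kdr (chromosome 5, 75932827 to 75978458, minus), Flt1 (chromosome 5, 147561604 to 147726011, minus), Emcn (chromosome 3, 137341067 to 137432185, plus), Tie1 (chromosome 4, 118471191 to 118490061, minus) and Esam (chromosome 9, 37528078 to 37538319, plus) had the bounds of the protein-coding gene in GENCODE M21. Cdh5 (chromosome 8, 104101625 to 104144502, plus) and Cldn5 (chromosome 16, 18776847 to 18778260, plus), a gene of 1 exon, differed from it by a few bases. The Plvap row runs from 71488103 to 71511769 on chromosome 8, where the gene itself spans 71497765 to 71511752 on the minus strand. The merged Egfl7 row runs from 26580014 to 26636497 on chromosome 2, where Egfl7 itself ends at 26593120 on the plus strand.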

How the data were processed

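The submitters' processing notes name bcl2fastq, FastQC (0.10.1), TopHat2 (2.1.1), Cuffdiff (2.2.1) and mm10, with no settings. Libraries were made with SMARTer v4 and Nextera kits from 5 ng of RNA, per the labels' protocols. The authors deposited 1 FPKM value per row and library, in a table whose title names both raw counts and FPKM. Of the values above 0, 99.98% were not whole, so no count test was used and read depth is unknown. Whether counting used strand is not stated, so overlapping genes on opposite strands cannot be told apart.

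Rows naming a listed gene were taken, with the row of highest mean where several did. Of 179 listed symbols, 1 was unmatched (Tubb3) and 1 matched by an older name. The 15037 rows that reached 1 FPKM in 3 or more libraries entered limma 3.58.1 (R 4.3.3), trended on mean log2(FPKM + 1), with no covariate. Omissions kept the same rows. The fit was tested on simulated data drawn independently for each row. That simulation did not cover a library that departs across whole marker lists.

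The members and lists were chosen with earlier results of these data known. By rule the named genes were the 10 members, the up to 4 genes of each list with the highest mean, list genes that passed where at most 6 did, and the 10 nearest patterns. Some of these are left out for length. Sele, Madcam1, Dll4, Vegfc, Tek, Pgf, Angpt2, Prox1 and Lyve1 were chosen after their values were seen. Alternatives were a pseudocount of 0.1, other filters, omitted libraries, a replicate block, a stricter threshold, other scalings and a robust variance.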

Additional observations from a re-analysis of the deposited data

How the results depend on the processing

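Of the endothelial genes 8 were higher without TNF replicate 1, and also 8 without Control replicate 4 and TNF replicate 1 together, against 0 with all libraries. After scaling to the horizontal basal cell list, of which 5 of 11 rows themselves rose, 1 was lower (Cldn5, −2.07). The median change of all rows moved to −1.44. That scaling gave 1 higher without TNF replicate 1, and 7 higher and 1 lower without both libraries, alternatives chosen after seeing the data. With each library left out in turn, 0 to 8 were higher. Other pan-endothelial genes counted 14 higher without TNF replicate 1, 15 without both libraries and 1 with the replicate block; without a single library they counted 2 to 14. After scaling to the basal cell list 0 were higher and 2 lower (1.77% and 64.4% of all rows). Without both libraries as well 11 were higher and 1 lower (7.59% and 73.1%).

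Over all rows, 2655 were lower with a filter of 5 FPKM, and 2835 were higher without both libraries. The block gave 744 higher and 2246 lower, an adjusted p below 0.01 gave 787 and 2504, and basal cell scaling 266 and 9691. With that scaling 333 were higher and 6767 lower without TNF replicate 1, and 10994 were lower without both libraries. Quantile normalization gave 2658 higher rows and single omissions 938 to 2205.

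The numbers shared by the groups, 1 and 4, are not stated to pair libraries, and same-numbered libraries correlated at −0.06 and −0.09 in their deviations, so the replicate block is only an alternative.

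Without both libraries Plvap was at 1.83, Flt1 at 1.65, Tie1 at 1.52, Esam at 1.97 and Egfl7 at 1.44. Over single omissions Plvap ran from −1.86 to 1.42. With basal cell scaling it was at 0.15 without TNF replicate 1 and 0.97 without both libraries, and Egfl7 was at −0.0074 without TNF replicate 1. Values of the opposite sign, none past the threshold, were found for Kdr (−0.45 with a pseudocount of 0.1, −0.019 with the block, −0.55 with basal cell scaling), Flt1 (−0.11, −0.091 and −0.50), Tie1 (−0.046, −0.035 and −0.42) and Egfl7 (−0.012, −0.47 and −1.15) in the same order, and for Esam (−0.056 with the block, −0.51 with basal cell scaling). Over single omissions Kdr ran from −0.29 to 1.41, Flt1 from −0.27 to 1.49, Tie1 from −0.082 to 1.38, Esam from −0.22 to 1.74 and Egfl7 from −0.66 to 1.23. The cause was not tested.

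The summed level over the Control mean was 2.85 and 4.03 in TNF replicates 3 and 4 after median-of-ratios scaling, and 1.45 and 1.98 relative to the summed housekeeping list, of which B2m is one and itself rose. With scaling to the basal cell list, of which 5 of 11 rows themselves rose, it was 0.775 and 1.15. That alternative was added after seeing the data. FPKM without counts gives no interval for values near 0.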
